A study of Mus musculus with 9 samples.

Results

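The 3 uncoupling protein genes *Ucp1*, *Ucp2* and *Ucp3* were followed through the hearts of C57BL/6J mice at embryonic day 18.5 (E18.5d), postnatal day 1 (P1d) and postnatal day 7 (P7d). They were found by gene symbol among 48820 genes of the deposited RNA-seq table, in which each symbol had 1 row, and all 3 had a mean of at least 1 fragment per kilobase of transcript and 1000000 mapped fragments (FPKM). They were chosen on their levels across these stages, so their stage differences are a description and carry no test. Each stage had 3 hearts, given as biological replicates of wild-type, untreated animals labelled male, so that 9 hearts differed by design only in age. Whole hearts were measured, in which fewer cells of a type and less RNA per cell cannot be told apart.

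Uncoupling proteins are carriers of the mitochondrial inner membrane and belong to the SLC25 family of solute carriers. UCP1 lets protons flow back into the matrix without ATP synthesis, which turns the energy of respiration into heat in brown fat, and it is opened by fatty acids and closed by purine nucleotides. UCP2 is found in many tissues and immune cells, UCP3 mostly in skeletal muscle, heart and brown fat, and neither has a settled transport role in heart. Genes of fatty acid use, *Ucp3* among them, are known targets of the peroxisome proliferator-activated receptors (PPARs), nuclear receptors that are activated by fatty acids.

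All 9 libraries held heart RNA by their cardiomyocyte markers, all 10 of which were detected, with a summed level of 39022 to 46436 FPKM. The sex labels did not hold throughout: the RNA of *Xist*, which coats the silenced X chromosome of females, reached 58.0 to 97.0 FPKM in replicates 1 and 3 of E18.5d and replicates 2 and 3 of P7d, where 4 Y-linked genes were listed at 0. In the other 5 hearts, which included all of P1d, it stayed at 0.11 FPKM or less. Depth, estimated from the steps between low FPKM values, was about 25400000 to 45800000 fragments a heart. Over the 13618 genes tested the median log2 difference was -0.06 for P1d against E18.5d, -0.17 for P7d against E18.5d and -0.09 for P7d against P1d. The differences and calls below are against 0 and were not shifted by these medians.

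*Ucp2* (ENSMUSG00000033685.13) was the most abundant of the 3 in every heart. It was at 10.82, 11.21 and 10.47 FPKM in the E18.5d hearts, at 37.47, 47.91 and 51.31 FPKM at P1d and at 64.93, 65.85 and 61.34 FPKM at P7d. The 3 stages did not overlap and followed each other in age. The mean was 10.8 ± 0.370 FPKM (SD, n = 3) at E18.5d, 45.6 ± 7.21 FPKM (SD, n = 3) at P1d and 64.0 ± 2.38 FPKM (SD, n = 3) at P7d. P1d was 4.21-fold above E18.5d, with ratios between single hearts of 3.34 to 4.90. P7d was only 1.41-fold above P1d, and there the ratios between single hearts ran from 1.20 to 1.76.

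*Ucp3* (ENSMUSG00000032942.14) was close to absent before birth. It was at 0.09, 0.02 and 0.03 FPKM in the E18.5d hearts, at 9.30, 6.16 and 6.27 FPKM at P1d and at 26.70, 21.82 and 19.97 FPKM at P7d. Here too every P1d heart lay above every E18.5d heart and below every P7d heart. The stage means were 7.24 ± 1.78 FPKM (SD, n = 3) at P1d and 22.8 ± 3.48 FPKM (SD, n = 3) at P7d, a 3.15-fold step between them with ratios of 2.15 to 4.33 between single hearts. The E18.5d values stood for about 9 fragments in all 3 hearts together if the 2448-base transcript was measured, and about 4 if the 1260-base one was. The merged exons of the gene, 3135 bases and the kind of length used to estimate depth, were not used here. The ratio of P7d to E18.5d was therefore known only roughly, at 512-fold with an exact 95% Poisson interval of 269.6 to 1119 on the longer transcript and 201.1 to 1889.8 on the shorter. These intervals cover counting error only.

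*Ucp1* (ENSMUSG00000031710.4) came last. It was listed at 0 FPKM in all E18.5d hearts, at 0.05, 0 and 1.31 FPKM at P1d and at 5.77, 7.26 and 6.84 FPKM at P7d. A zero at E18.5d left room for up to 0.0601 to 0.0885 FPKM, the value of 3 fragments at the estimated depth of those hearts. The P7d values stood for about 274 to 413 fragments a heart and had a mean of 6.62 ± 0.768 FPKM (SD, n = 3). The P1d hearts overlapped those of E18.5d: replicate 1 rested on about 2 fragments and replicate 2 on none, and replicate 3 alone, with about 51 fragments, was clearly above zero. Without P1d replicate 3 the log2(FPKM + 1) difference of P1d from E18.5d went from 0.43 to 0.04. No fold is given against E18.5d, where the gene was at 0.

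**Figure D1:**
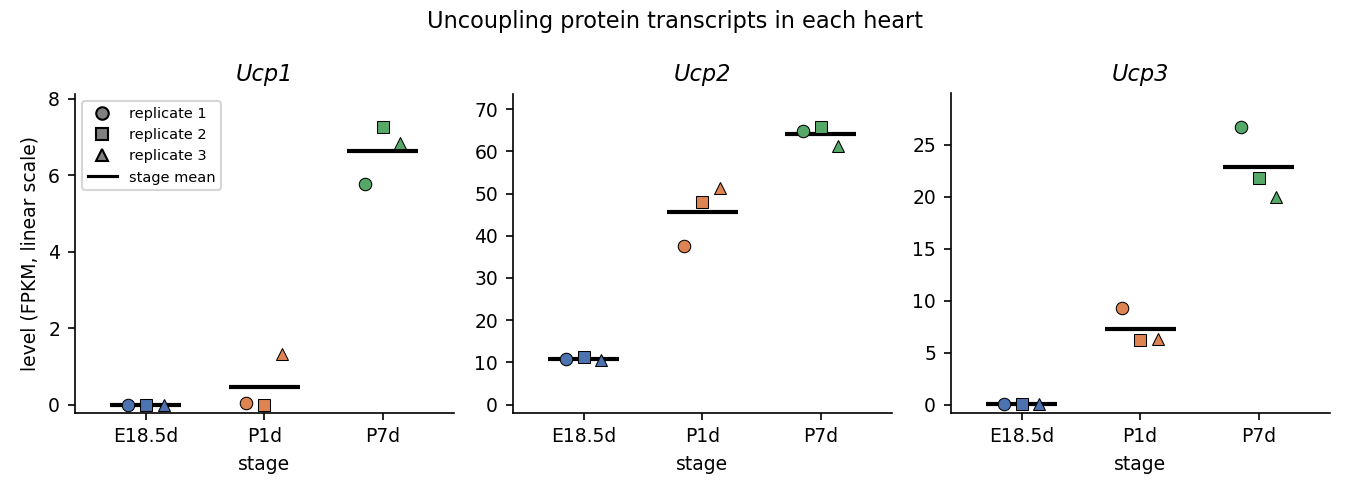
Level of *Ucp1*, *Ucp2* and *Ucp3* in FPKM (y, linear) in each heart by stage (x), with symbols for the replicate numbers and a line at the stage mean. In FPKM, *Ucp2* had its larger step before P1d, from 10.8 to 45.6, *Ucp3* its larger step after P1d, from 7.24 to 22.8, and *Ucp1* was above 1.31 at P7d only. On log2(FPKM + 1) the larger step of *Ucp3* was the one before P1d (2.96 against 1.54).

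The genes thus differed in when their P7d level was reached. Of the difference in mean FPKM between E18.5d and P7d, 65.3% was present at P1d for *Ucp2*, 31.6% for *Ucp3* and 6.84% for *Ucp1*. On the log2(FPKM + 1) scale the differences of P1d from E18.5d were 1.96 for *Ucp2*, 2.96 for *Ucp3* and 0.43 for *Ucp1*, and those of P7d from P1d were 0.49, 1.54 and 2.50 in the same order. This scale understates the change of genes near 0: with a pseudocount of 0.1 in place of 1 the P7d difference from E18.5d went from 4.50 to 7.31 for *Ucp3* and from 2.93 to 6.06 for *Ucp1*, but only from 2.46 to 2.55 for *Ucp2*. In the hearts with Y-linked genes alone (E18.5d replicate 2, all of P1d and P7d replicate 1) the P7d differences from E18.5d were 2.76, 2.43 and 4.76 for *Ucp1*, *Ucp2* and *Ucp3*. By the size of the P7d difference from E18.5d, *Ucp3* ranked 4, *Ucp1* 18 and *Ucp2* 26 of the 13618 genes.

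The P1d hearts were not ordered alike by the 3 genes. Replicate 1 had the highest *Ucp3* (9.30 FPKM) and the lowest *Ucp2* (37.47 FPKM). Replicate 3 had the highest *Ucp2* (51.31 FPKM) and the highest *Ucp1* (1.31 FPKM), and its *Ucp3* lay 0.11 FPKM above that of replicate 2. At P7d replicate 1 again had the highest *Ucp3* (26.70 FPKM), now with the lowest *Ucp1* (5.77 FPKM). With 3 hearts a stage, these orders were not tested.

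The sum of the 3 genes was 10.5 to 11.2 FPKM at E18.5d, 46.8 to 58.9 FPKM at P1d and 88.2 to 97.4 FPKM at P7d. *Ucp2* made up 99.2% to 99.8% of it at E18.5d, 80.0% to 88.6% at P1d and 66.7% to 69.6% at P7d. The share of *Ucp3* was at most 0.825% at E18.5d, 10.6% to 19.9% at P1d and 22.7% to 27.4% at P7d, and that of *Ucp1* was 5.92% to 7.76% at P7d. Shares within a heart do not depend on how the libraries were scaled to each other. *Ucp2* still exceeded *Ucp3* 2.43- to 3.07-fold at P7d. Against *Slc25a4*, the ADP/ATP carrier of heart and muscle mitochondria and a far more abundant member of the SLC25 family, the sum stood at 1.23% to 1.27% at E18.5d, 3.98% to 5.10% at P1d and 9.85% to 10.9% at P7d, with both in FPKM.

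**Figure D2:**
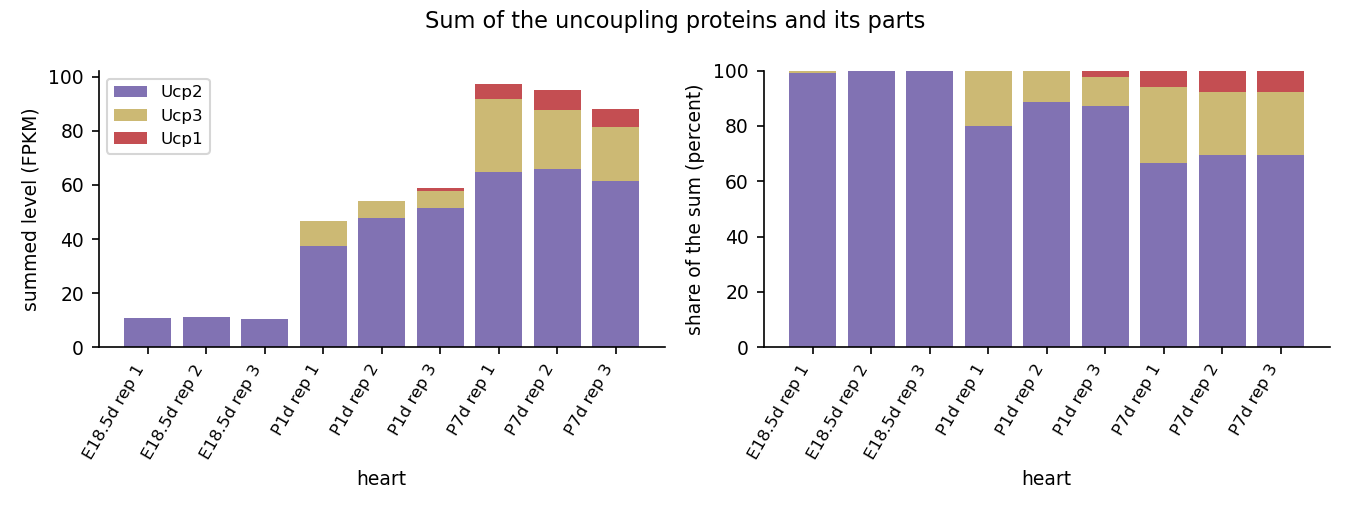
Sum of *Ucp1*, *Ucp2* and *Ucp3* in FPKM (left) and the share of each gene in that sum in percent (right), one bar per heart (x). The sum went from at most 11.2 FPKM at E18.5d to at least 88.2 FPKM at P7d, while the share of *Ucp2* was at least 99.2% at E18.5d and at most 69.6% at P7d.

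*Ucp3* and *Ucp2* are neighbours on the plus strand of chromosome 7 in GRCm38, *Ucp3* at chr7:100472990-100486432 and *Ucp2* at chr7:100493337-100502020, with 6904 bases between them. *Ucp1* is on the plus strand of chromosome 8, at chr8:83290352-83298452, and has a single annotated transcript of 1636 bases. The longest stretch that the longest transcripts share exactly is 24 bases between *Ucp2* and *Ucp3* and 17 bases between *Ucp1* and either of them, against an estimated fragment length of 292 to 328 bases. The 250 bases before each RefSeq start (GRCm38.p6) are shown because the pair on chromosome 7 was higher after birth in every heart and PPARs are known to bind, with a retinoid X receptor, to paired copies of AGGTCA. They run 5′ to 3′, chr7:100472741-100472990 for *Ucp3*, chr7:100493108-100493357 for *Ucp2* and chr8:83290098-83290347 for *Ucp1*, with AGGTCA and GGGCGG, the latter a core that Sp1 is known to bind, in capitals on either strand.
Ucp3: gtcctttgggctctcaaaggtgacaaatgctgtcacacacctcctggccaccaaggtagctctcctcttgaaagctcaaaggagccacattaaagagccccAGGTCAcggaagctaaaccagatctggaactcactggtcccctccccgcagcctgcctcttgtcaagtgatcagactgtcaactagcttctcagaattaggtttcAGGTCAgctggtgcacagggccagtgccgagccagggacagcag
Ucp2: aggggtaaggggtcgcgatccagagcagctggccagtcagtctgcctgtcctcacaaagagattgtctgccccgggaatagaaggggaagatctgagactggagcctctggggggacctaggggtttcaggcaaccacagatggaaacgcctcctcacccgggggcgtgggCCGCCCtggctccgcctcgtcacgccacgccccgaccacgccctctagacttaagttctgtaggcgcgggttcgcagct
Ucp1: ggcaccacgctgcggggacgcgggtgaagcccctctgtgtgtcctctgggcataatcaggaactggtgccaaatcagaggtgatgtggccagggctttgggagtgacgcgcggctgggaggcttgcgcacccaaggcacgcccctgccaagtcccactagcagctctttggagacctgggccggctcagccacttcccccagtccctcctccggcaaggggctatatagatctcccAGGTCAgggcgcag

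The window of *Ucp3* held AGGTCA 2 times, with first bases 149 and 44 bases before the start, that of *Ucp1* held it 1 time, 14 bases before the start, and that of *Ucp2* did not hold it. It occurred in 14.04% of 32536 different RefSeq promoters cut to the same 250 bases. No window held 2 copies 1 base apart on 1 strand, which 0.03% of promoters did. GGGCGG was found 1 time before *Ucp2*, on the minus strand, and in 33.0% of promoters. CANNTG, the E-box, was found at 2 places before *Ucp2*, 3 before *Ucp3*, the last of which overlaps the second AGGTCA, and none before *Ucp1*, against 66.2% of promoters with at least 1. TATAAA was in no window of the 3 and in 12.3% of promoters. The windows of *Ucp1* and *Ucp2* had 64.8% and 63.6% G or C with 12 and 16 CG pairs, and that of *Ucp3* 54.8% with 3 CG pairs, where the median promoter had 52.4% and 6. These matches describe the letters only.

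Beside the pair, *C2cd3*, upstream of *Ucp3* and needed for centrioles, had means of 11.2, 8.37 and 8.13 FPKM at the 3 stages and fell from E18.5d to P1d (log2 difference -0.39, limma adjusted p = 0.00401), with -0.42 (limma adjusted p = 0.00244) at P7d. *Mrpl48*, a mitochondrial ribosomal protein gene downstream of *Ucp2*, went from 32.6 to 40.1 and 29.0 FPKM, higher at P1d than at E18.5d (log2 difference 0.29, limma adjusted p = 0.00567) and lower at P7d than at P1d (-0.46, limma adjusted p = 5.66e-04). *Coa4* was at 3.19 to 7.06 FPKM and passed no test.

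Genes that overlap the pair were far below it after birth. *Gm10603*, an antisense transcript over the start of *Ucp3*, was at 0.25 to 0.74 FPKM at E18.5d, 0.88 to 1.68 at P1d and 1.08 to 1.62 at P7d, called higher than before birth at P1d (log2 difference 0.57, limma adjusted p = 0.0265) and P7d (0.65, limma adjusted p = 0.0140), as the pair was higher. *Dnajb13*, whose end overlaps that of *Ucp2* on the other strand, was at 0.17 to 0.71 FPKM throughout. Before birth *Gm10603* was above *Ucp3*, which was at 0.02 to 0.09 FPKM. Whether counting used strand is not given in the sources used here, so fragments from the overlaps cannot be assigned. Within 100 kb of *Ucp1*, *Tbc1d9* was at 2.14 to 3.15 FPKM and passed no test, *Elmod2* was lower at P1d than at E18.5d (4.47 against 6.02 FPKM, log2 difference -0.35, limma adjusted p = 0.0242), *Mgat4d* was listed at 0 in every heart and *Clgn* did not exceed 0.03 FPKM.

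PPAR target genes were the group closest in known regulation to *Ucp3*, and they stood high from P1d on. Of 28 listed, 26 passed the filter on low values, and *Fgf21* and *Vnn1* did not. At P1d 25 of the 26 were above their level before birth and 0 below it, where 18.4% of all genes tested were called higher and 27.6% lower. At P7d all 26 were above it, against 12.5% called higher and 36.9% called lower of all genes. Between P1d and P7d 6 were higher and 7 lower, against 15.5% and 28.6% of all genes. Fewer targets were called in each comparison in hearts with Y-linked genes alone. Those counts are not given, as E18.5d and P7d keep 1 heart each there. The median log2 difference of the 26 targets was 1.16 at P1d and 1.35 at P7d from E18.5d, and -0.01 between P1d and P7d.

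Among the largest of these differences were those of *Pdk4*, which restrains pyruvate oxidation, *Angptl4*, an inhibitor of lipoprotein lipase, *Plin5*, a lipid droplet protein, and *Acot1*, a thioesterase. *Pdk4* had means of 11.5, 140 and 128 FPKM at the 3 stages (P7d against E18.5d, log2 difference 3.37 ± 0.15 SE, limma adjusted p = 3.94e-07). *Angptl4* went from 2.00 to 26.1 and 26.8 FPKM and *Acot1* from 8.38 to 73.9 at P1d, with log2 differences of P1d from E18.5d of 3.13 and 2.99 (limma adjusted p = 5.17e-06 and 6.51e-08). *Plin5* was at 1.55, 16.6 and 26.0 FPKM and, like *Ech1* and *Decr1*, enzymes of unsaturated fatty acid oxidation, was higher at P7d than at P1d (log2 differences 0.64, 0.47 and 0.47, limma adjusted p = 0.0108, 0.00225 and 2.72e-04), where the call of *Plin5* was lost with a term for *Xist* (limma adjusted p = 0.0737). The largest falls from P1d to P7d were those of *Acot1* (73.9 to 37.8 FPKM), the thioesterase *Acot2* (85.5 to 58.0 FPKM) and of *Cpt1a* (74.7 to 51.4 FPKM), the non-muscle form of carnitine palmitoyltransferase 1, with limma adjusted p = 3.04e-05, 5.54e-04 and 1.86e-04.

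Set beside these genes on the linear FPKM scale, the uncoupling proteins lay at the late end. The share of the E18.5d to P7d difference present at P1d had a median of 102% over the 26 targets and ran from 16.6% for *Acadm* to 248% for *Ehhadh*. It was over 100% for 14 of them, whose mean was thus higher at P1d than at P7d. For 21 targets it was above the 65.3% of *Ucp2*, for 25 above the 31.6% of *Ucp3* and for all 26 above the 6.84% of *Ucp1*. *Decr1*, at 58.3%, was the nearest target above *Ucp3*. Among the P1d hearts replicate 2 was highest for 12 of the 26 targets, replicate 1 for 11 and replicate 3 for 3. *Pdk4* (175.87, 135.07 and 108.19 FPKM) and *Angptl4* (36.51, 20.25 and 21.67 FPKM) were highest in replicate 1, as was *Ucp3*. The counts for P7d against P1d depend on scaling: with the libraries set to an equal sum over protein-coding nuclear genes they were 11 higher and 3 lower, and 7 lower became 3 also without P1d replicate 1, P1d replicate 2 or P7d replicate 3.

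**Figure D3:**
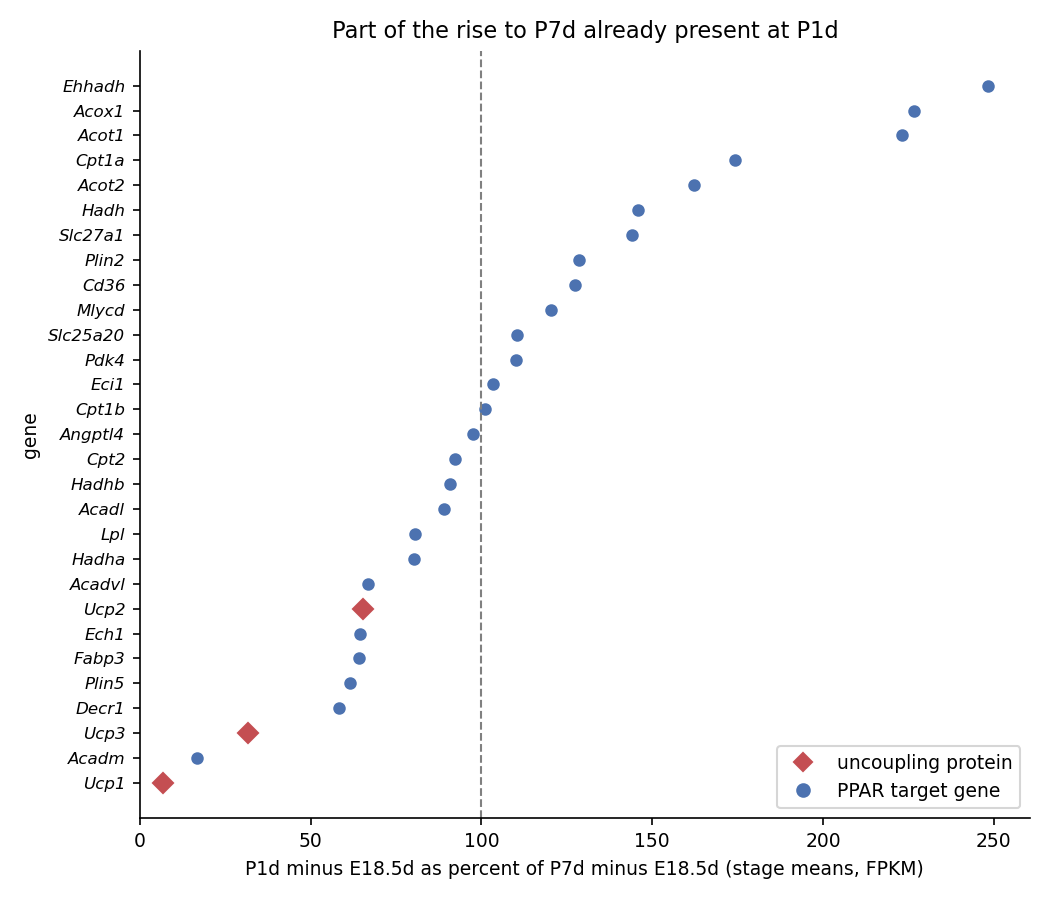
Difference in mean FPKM between P1d and E18.5d as a percent of that between P7d and E18.5d (x), for the 3 uncoupling proteins (diamonds) and the 26 PPAR target genes (circles), with 100% dashed. *Ucp1* (6.84%) and *Ucp3* (31.6%) are in the lowest 3 places with *Acadm* (16.6%), and 14 targets lie above 100%.

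The PPARs and their coactivator *Ppargc1a* differed between stages by at most 0.69 on the log2 scale. *Ppara*, the main PPAR of heart muscle, was at 13.42, 10.86 and 10.41 FPKM at E18.5d, 6.22, 8.49 and 9.24 at P1d and 11.10, 12.26 and 10.74 at P7d, below E18.5d at P1d (log2 difference -0.49, limma adjusted p = 0.0154) and with no difference called at P7d (-0.02, limma adjusted p = 0.930). The P1d call was lost with the *Xist* term (limma adjusted p = 0.0849), in hearts with Y-linked genes alone and when E18.5d replicate 1 was left out (limma adjusted p = 0.0577). *Ppara* was called higher at P7d than at P1d (log2 difference 0.47, limma adjusted p = 0.0191). That call was lost in 4 of 20 alternatives, among them the *Xist* term and the omission of P1d replicate 1 or P7d replicate 2. *Pparg* was higher at P1d (2.94 to 5.38 FPKM, log2 difference 0.67, limma adjusted p = 0.00602) and at 3.56 FPKM at P7d (P7d against P1d, -0.46, limma adjusted p = 0.0360), a call lost in 13 of 19 alternatives, among them 3 scalings and the omission of E18.5d replicate 1, of P1d replicate 1 or 2, or of any P7d heart. *Ppard* was at 3.74, 3.08 and 4.46 FPKM (P7d against P1d, 0.41, limma adjusted p = 0.0237), but it no longer passed in 6 of 19 alternatives, among them the *Xist* term and the omission of replicate 1 or 3 of P1d or replicate 2 of P7d. *Ppargc1a*, a driver of mitochondrial gene programmes, was at 30.0, 49.1 and 30.0 FPKM (P1d against E18.5d, log2 difference 0.69, limma adjusted p = 1.08e-04). *Rxrg*, a partner receptor of the PPARs, had its larger log2 difference after P1d, like *Ucp1* and unlike *Ucp3*. It was at 0.34 to 0.47 FPKM at E18.5d, 0.94 to 1.17 at P1d and 7.66 to 9.73 at P7d (log2 difference 0.52 for P1d against E18.5d and 2.27, limma adjusted p = 2.98e-06, for P7d against P1d).

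Of the 16 receptors and cofactors tested, 8 were called higher and 2 lower for P1d against E18.5d, where 18.4% and 27.6% of all genes were, 4 and 2 for P7d against E18.5d (12.5% and 36.9% of all genes), and 4 and 4 for P7d against P1d (15.5% and 28.6%). *Rxra* was lower at P7d than at P1d (18.8 to 13.5 FPKM, limma adjusted p = 0.00576). The coactivator *Ppargc1b* (15.2 to 20.2 FPKM, limma adjusted p = 0.025) and the receptor *Esrrb* (2.65 to 4.50 FPKM, limma adjusted p = 0.0133) rose between E18.5d and P7d. The call of *Esrrb* was lost without P7d replicate 2 (limma adjusted p = 0.0545) and in hearts with Y-linked genes alone. That of *Ppargc1b* was lost in 7 of 20 alternatives: with no filter, an equal sum, hearts with Y-linked genes alone, and when replicate 1 or 3 of the E18.5d hearts, or replicate 2 or 3 at P7d, was left out (log2 difference 0.39, and 0.33 to 0.44 with 1 heart left out). *Med1*, a Mediator subunit (21.9 to 16.7 FPKM, limma adjusted p = 0.0149), was lower at P7d, a call lost under all 4 scalings tried, in hearts with Y-linked genes alone and without replicate 2 of either stage. The corepressor *Ncor1* (65.6 to 58.0 FPKM, limma adjusted p = 0.0469) lost its call in 13 of 20 alternatives, 6 of them with 1 heart left out (any at E18.5d, replicate 1 at P1d, replicate 2 or 3 at P7d), and its difference turned from -0.18 to 0.03 under median-of-ratios scaling.

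Of the other SLC25 carriers 13 were tested, and 6 were called higher and 0 lower for P1d against E18.5d, where 18.4% and 27.6% of all genes were. For P7d against E18.5d 2 were higher and 2 lower (12.5% and 36.9% of all genes), and for P7d against P1d 0 and 4 (15.5% and 28.6%), so that the share of carriers called lower in that last comparison was near the share of all genes. *Slc25a34* came nearest in size, at 0.69 to 1.21 FPKM at E18.5d, 12.82 to 21.15 at P1d and 17.36 to 19.53 at P7d (P7d against E18.5d, log2 difference 3.29, limma adjusted p = 9.42e-07). *Slc25a20*, which carries acylcarnitines into mitochondria, was at 32.5, 91.3 and 85.7 FPKM (1.37, limma adjusted p = 1.23e-06). *Slc25a5*, another ADP/ATP carrier, fell between E18.5d and P7d (404 to 273 FPKM, -0.57, limma adjusted p = 9.76e-05).

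Of 3 relatives first described in brain or kidney, 2 were called lower at P7d than at P1d, where 28.6% of all genes were. Both were among the 4 carriers counted as lower in that comparison above. *Slc25a27*, also known as UCP4, was at 1.20, 2.52 and 1.17 FPKM, lower at P7d than at P1d (log2 difference -0.69, limma adjusted p = 0.00550). *Slc25a30* was at 7.85, 11.9 and 5.86 FPKM, lower at P7d than at P1d (-0.90, limma adjusted p = 2.01e-04) and than at E18.5d (-0.37, limma adjusted p = 0.0166), the latter lost in 6 of 20 alternatives, among them 3 scalings and the omission of E18.5d replicate 2 or P7d replicate 3. *Slc25a14*, also known as UCP5, was at 1.54 to 3.43 FPKM and passed no test.

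*Ucp1* is the defining gene of brown fat, so the markers of brown adipocytes were set beside it. Of 13 markers, 5 stayed under 0.5 FPKM in every heart: *Elovl3* (at most 0.06 FPKM), *Zic1* (at most 0.06), *Lhx8* (at most 0.39), *Adrb3* (at most 0.17) and *Otop1* (at most 0.11). At P7d, where *Ucp1* was at 5.77 to 7.26 FPKM, *Elovl3* was listed at 0 in all hearts, and *Zic1*, *Lhx8* and *Adrb3* reached at most 0.01, 0.05 and 0.08 FPKM. *Otop1* was listed at 0 in all E18.5d hearts, at 0 to 0.03 FPKM at P1d and at 0.01, 0.11 and 0.09 FPKM at P7d. Its mean was highest at P7d, as that of *Ucp1* was, but the P1d and P7d hearts overlapped. No fragments were estimated for markers this close to 0. Among the P1d hearts replicate 3, where *Ucp1* was at 1.31 FPKM, had the highest *Elovl3* (0.06 FPKM, against 0 in the others) and *Adrb3* (0.17 against 0.14 and 0.09). It was also highest for *Dio2* (0.93 against 0.40 and 0.41), *Prdm16* (18.35 against 13.38 and 9.57) and *Kcnk3* (13.61 against 11.19 and 11.96). It was lowest for *Lhx8* (0.20 against 0.31 and 0.39), *Otop1* (0 against 0.02 and 0.03) and *Cidea* (21.63 against 22.38 and 22.96). For the other listed markers it lay between the other P1d hearts.

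The markers that were present are also expressed in heart muscle or other cells. Of 7 tested, 5 were called higher and 0 lower for P7d against E18.5d, where 12.5% and 36.9% of all genes were: *Cidea*, a lipid droplet protein (5.56 to 7.77 FPKM at E18.5d, 21.63 to 22.96 at P1d, 25.09 to 29.40 at P7d), the potassium channel *Kcnk3* (8.88 to 9.64, 11.19 to 13.61 and 22.20 to 25.72), the amino acid transporter *Slc36a2* (1.07 to 1.22, 1.41 to 1.73 and 3.28 to 3.36) and the cytochrome oxidase subunits *Cox7a1* (694.93 to 908.87 over all hearts) and *Cox8b* (534.54 to 969.26). *Ebf2* (4.12 to 6.69 FPKM) and *Prdm16* (9.57 to 18.35) passed no test, and *Dio2* (0.40 to 1.51) was below the filter. The summed level of the list, nearly all from the cytochrome oxidase subunits, was 1280 to 1315 FPKM at E18.5d, 1257 to 1579 at P1d and 1583 to 1904 at P7d.

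Markers of fat cells in general rose by P1d and then went both ways. Of 13, 7 could be tested, and 7 were called higher and 0 lower for P1d against E18.5d (18.4% and 27.6% of all genes), then 2 higher and 4 lower for P7d against P1d (15.5% and 28.6%). The 2 that went on upward as *Ucp1* did were *Aqp7*, a glycerol channel, with means of 0.963, 4.73 and 6.83 FPKM (P7d against P1d, limma adjusted p = 0.0468), and *Thrsp*, which is tied to fat synthesis, with 0.653, 1.46 and 2.50 FPKM (limma adjusted p = 0.00667). *Adipoq*, the adipocyte hormone adiponectin, was at 0 to 0.42 FPKM, 1.91 to 3.09 FPKM and 0.86 to 1.01 FPKM, highest at P1d, where *Ucp1* was not. *Plin1*, on the droplets of mature fat cells, was at 0 to 0.19 FPKM at E18.5d, 0.28 to 1.38 at P1d and 1.31 to 1.42 at P7d, and *Lep* did not exceed 0.05 FPKM. The summed level was 260 to 268 FPKM at E18.5d, 509 to 668 at P1d and 389 to 452 at P7d, nearly all of it from *Fabp4*, a fatty acid binding protein also made by endothelial cells (247 to 258, 475 to 614 and 353 to 416 FPKM). The part of fat cells in the level of *Ucp1* was not tested.

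For *Ucp3*, which skeletal muscle also expresses, 20 skeletal muscle markers were examined. Of these 12 stayed under 0.5 FPKM in every heart, among them the fast myosins *Myh1*, *Myh2* and *Myh4*, and *Pax7* was listed at 0. All 7 that could be tested fell between E18.5d and P7d, where 36.9% of all genes did, led in level by *Myl1* (166.19 to 178.77 FPKM at E18.5d, 28.14 to 36.12 at P7d) and *Casq1* (58.02 to 67.96 and 14.85 to 18.62), and the summed level went from 252 to 272 FPKM at E18.5d to 51.2 to 60.1 FPKM at P7d, most of it from those 2 genes. The part of skeletal muscle in the level of *Ucp3* was not tested.

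For *Ucp2*, which leukocytes express, 15 leukocyte markers were examined, of which 12 could be tested. For P1d against E18.5d 7 were called higher and 0 lower (18.4% and 27.6% of all genes), for P7d against E18.5d 3 and 0 (12.5% and 36.9%), and for P7d against P1d 2 and 2 (15.5% and 28.6%). *S100a8*, a neutrophil gene, was at 2.13 to 4.99 FPKM, 16.67 to 25.60 FPKM and 3.79 to 4.76 FPKM at the 3 stages. *Lyz2* was at 12.99 to 17.36, 22.64 to 29.86 and 21.31 to 23.90 FPKM, and *Ptprc*, on all leukocytes, at 1.28 to 1.66, 1.23 to 1.47 and 2.03 to 3.08 FPKM. The summed level was 71.6 to 87.4 FPKM at E18.5d, 114 to 160 at P1d and 97.0 to 108 at P7d, so that it was highest at P1d and *Ucp2* at P7d. Their part in the level of *Ucp2* was not tested.

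Endothelial markers, 7 in all, summed to 383 to 418 FPKM at E18.5d, 436 to 498 at P1d and 473 to 491 at P7d. Those of red cells, of which *Ahsp* was not found by symbol, summed to 8421 to 22751 FPKM at E18.5d, 12738 to 24735 at P1d and 8554 to 10413 at P7d. For P7d against E18.5d, where 12.5% of all genes were higher and 36.9% lower, 4 endothelial markers were called higher and 2 lower, and 0 of 7 red cell markers were called. The part of either cell type in the level of *Ucp2* was not tested.

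The genes whose levels over the 9 hearts were most like each member were taken by Pearson's r on log2(FPKM + 1), which here mostly reflects the 3 stages. For *Ucp2* they were *Ptp4a3* (r = 0.997), a phosphatase, *Gpcpd1* (0.994), *Fabp3* (0.994), the fatty acid binding protein of heart, *Acadvl* (0.994), the first enzyme of long-chain fatty acid oxidation, and *Atp2a2* (0.993), the calcium pump of the sarcoplasmic reticulum. *Fabp3* and *Acadvl* also stood on the list of PPAR targets. For *Ucp3* they were *Decr1* (0.994), again a PPAR target, *Crat* (0.993), carnitine acetyltransferase, *Vwa8* (0.991), *3425401B19Rik* (0.990) and *Me1* (0.989), malic enzyme. *Ucp2* and *Ucp3* had an r of 0.972 with each other, and *Ucp1* one of 0.739 with *Ucp2* and 0.804 with *Ucp3*.

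The genes most like *Ucp1* set P1d replicate 3 apart. They were *Emilin2* (r = 0.994) and *Col8a1* (0.986), of the extracellular matrix, *Hfe2* (0.991), the iron regulator hemojuvelin, *Lrtm1* (0.986) and *D630003M21Rik* (0.986). *Emilin2* was at 24.58 to 24.88 FPKM at E18.5d, at 25.50, 24.51 and 40.88 FPKM in the P1d hearts and at 60.63 to 64.26 FPKM at P7d. *Hfe2* was at 14.91, 14.79 and 21.44 FPKM at P1d and *Lrtm1* at 1.59, 0.99 and 2.59 FPKM. In all 5 genes P1d replicates 1 and 2 were near the E18.5d level and replicate 3 was the highest P1d heart, as for *Ucp1* itself. They were picked for this likeness, so it is a description and no finding about them.

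**Figure D4:**
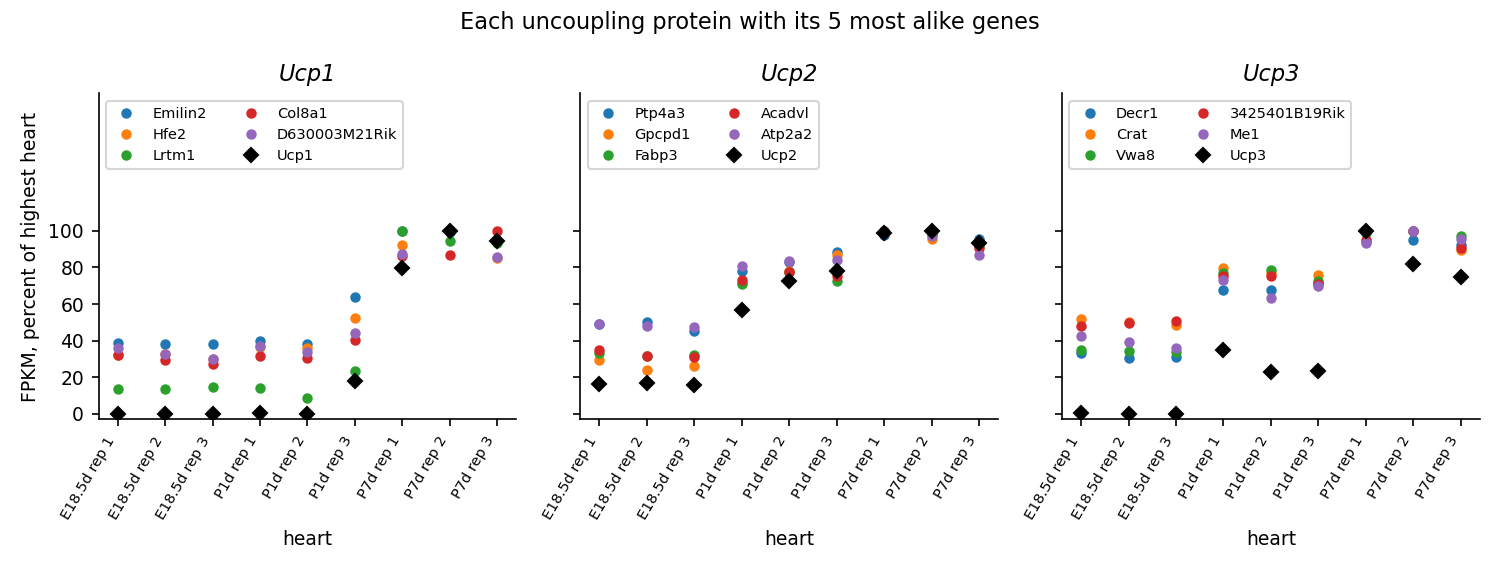
FPKM as percent of the highest heart (y) in each heart (x) for *Ucp1*, *Ucp2* and *Ucp3* (black diamonds) and the 5 genes most like each (coloured circles). In the panel of *Ucp1*, P1d replicate 3 is the highest P1d heart for all 6 genes, and in the panels of *Ucp2* and *Ucp3* the P1d hearts lie between the other stages.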

How the data were processed

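Hearts of 9 C57BL/6J mice were measured by RNA-seq, 3 each at E18.5d, P1d and P7d, from 2 µg of total RNA with the NEBNext Ultra RNA kit. The authors deposited 1 table of FPKM values with 2 decimals for 48820 genes, which was used as given. The submitters' processing notes name STAR and the builds GRCm38 and mm10. The counter, the transcript lengths, the annotation and the use of strand are not given in the sources used here. Gene positions came from GENCODE M21 (GRCm38), which held 48144 of the identifiers, and promoters from RefSeq (GRCm38.p6), which held all 3 members. Protein sequences were not analysed here.

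The members and the gene lists were chosen with earlier results of these data known, so list counts are not independent support. Some listed genes are not reported here. Members were described without a test. The 13618 genes that averaged at least 1 FPKM over the hearts were tested with limma 3.58.1 in R 4.3.3 on log2(FPKM + 1), with an intensity trend, all 9 hearts in 1 fit, Benjamini-Hochberg adjustment over all genes and a threshold of 0.05. Fold changes on this scale understate those of low genes. The fit was tested on simulated data. Depth was estimated per heart from the steps of low FPKM values, with the merged exons of each gene as its length. Genes with several transcripts were not left out. Of the values used, 80.3% to 83.3% came out whole against 15.2% to 15.9% by chance. The tolerance was 0.04 to 0.12 fragments, which covers the rounding of the table to 2 decimals and 0.02 beyond it.

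Genes named were the members, the 5 most alike by Pearson's r, the 3 largest differences in each direction of the PPAR, receptor and carrier lists among called genes whose hearts did not overlap (with *Ppara*, *Ppard*, *Pparg* and *Ppargc1a* in any case), present markers by their range, and protein-coding genes within 100 kb. Genes that gave the end of a range, single cell type markers and *Gm10603*, *Slc25a4* and *Slc25a14* were added after their values were seen. Alternatives were another pseudocount, filters, scalings, fits with a replicate block, with an *Xist* term, in hearts with Y-linked genes alone, in the compared stages alone, and without each heart in turn.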

Additional observations from a re-analysis of the deposited data

How the results depend on the processing

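The 9 stage differences of the members kept their sign under each alternative tried. With a pseudocount of 0.1 they went to 1.47, 6.06 and 4.60 for *Ucp1* (P1d and P7d against E18.5d, P7d against P1d), 2.55 for *Ucp2* at P7d against E18.5d, and 5.65 and 7.31 for *Ucp3* at P1d and P7d against E18.5d. For P7d against E18.5d, *Ucp2* was at 2.62 with an equal sum of protein-coding nuclear genes, 2.66 under median-of-ratios scaling and 2.63 when quantile normalized, and in hearts with Y-linked genes alone, where E18.5d and P7d keep 1 heart each and are assumed to vary like P1d, *Ucp1* was at 2.76 and *Ucp3* at 4.76. The numbers of the hearts did not pair them (correlations of -0.05 to 0.11 between same-numbered hearts), and with a replicate block *Ucp1*, *Ucp2* and *Ucp3* stayed at 2.93, 2.46 and 4.50 and the PPAR targets at 26 higher for P7d against E18.5d.

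In hearts with Y-linked genes alone, 16 PPAR targets were called higher for P7d against E18.5d and 0 in either direction for P7d against P1d. For P7d against P1d the 6 higher became 11 with an equal sum of protein-coding nuclear genes and 10 with quantile normalization. The 7 lower became 3 with an equal sum, with that of protein-coding nuclear genes, with median of ratios and with an *Xist* term. They became 4 with quantile normalization, and 3 to 8 when 1 heart was left out. Median of ratios moved the share of higher calls among all genes from 40.0% to 51.6% for P1d against E18.5d, from 25.3% to 55.5% for P7d against E18.5d and from 35.1% to 56.4% for P7d against P1d.

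The 84 genes of the other lists were examined under the same alternatives after seeing the data. For P1d against E18.5d 40 were higher and 10 lower, where 18.4% and 27.6% of all genes were. The 10 lower became 17 with an equal sum, 6 with an *Xist* term, and 5 (without E18.5d replicate 1) to 10 with 1 heart left out. Over all genes the lower calls went from 3755 to 4706, 2893 and, without E18.5d replicate 1, 3226. For P7d against E18.5d 27 were higher and 17 lower, where 12.5% and 36.9% of all genes were. The 27 higher became 42 with an equal sum of protein-coding nuclear genes, 43 under median-of-ratios scaling and 41 when quantile normalized. Over all genes the higher calls went from 1706 to 2755, 3162 and 2889 in the same order. For P7d against P1d 14 were higher and 26 lower, where 15.5% and 28.6% of all genes were. The 14 higher became 7 with a mean of at least 5 FPKM, 22 with an equal sum of protein-coding nuclear genes, 8 with an *Xist* term, and 9 (without P7d replicate 2) to 15 with 1 heart left out. Over all genes the higher calls went from 2112 to 1482, 3296, 1467 and, without P7d replicate 2, 1776. Hearts with Y-linked genes alone, with 1 heart each at E18.5d and P7d, are left out of these counts.

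Of the 44 named differences 39 were called, and 27 of these lost their call in at least 1 of the alternatives, 16 of them in hearts with Y-linked genes alone and in no other. For P7d against E18.5d the sign turned for *Ncor1* with median of ratios (0.034), for *Ppard* in hearts with Y-linked genes alone (-0.081), for *Ppara* to 0.14, 0.18 and 0.14 with an equal sum of protein-coding nuclear genes, median of ratios and quantile normalization, to 0.029 in hearts with Y-linked genes alone and -0.083 to 0.086 with 1 heart left out, and for *Ppargc1a* to 0.16, 0.20 and 0.15 with the same scalings and -0.063 to 0.054 with 1 heart left out. As reported, *Ppara*, *Ppard* and *Ppargc1a* were not called in that comparison. *Ppard* gained a call there with median of ratios (0.36, limma adjusted p = 0.0466) and, for P1d against E18.5d, with an equal sum (-0.35, limma adjusted p = 0.0358). The cause was not tested.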
